A study of Homo sapiens with 4 samples.

Results

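Binding regions of the transcription factor ONECUT2 on human chromosome 7 were described in 22Rv1, an established prostate carcinoma line that arose from a xenograft grown back after castration. The members are all regions that the 3 deposited peak lists place on this chromosome. They numbered 1176 of 14431 peaks in replicate 1, 1279 of 11990 in replicate 2 and 426 of 4297 regions in the list from an irreproducible discovery rate (IDR) procedure, which is meant to keep regions that rank alike in replicates. That is 8.15%, 10.7% and 9.91% of the lists. Of the regions on autosomes alone it is 8.39%, 10.95% and 10.0%, on a chromosome with 5.52% of the autosome length counted here.

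The study used chromatin immunoprecipitation followed by sequencing (ChIP-seq). The series holds 4 libraries of 22Rv1 cells with no treatment named, 2 made with a rabbit antibody against ONECUT2 and 2 of input DNA. All come from 1 cell line, with no word in the labels on how many cultures gave the 2 ChIP libraries, whose differences may thus be technical. Positions are given in hg19 and counted from 1.

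As background, ONECUT proteins bind DNA through a CUT domain and a homeodomain and act in the development of liver, pancreas and nervous system. ONECUT2 is known in prostate cancer as a factor linked to loss of androgen dependence and to neuroendocrine features. Chromosome 7 carries the HOXA genes, which set position along the body axis, the growth factor receptor genes EGFR and MET, the Polycomb methyltransferase gene EZH2 and the imprinted gene PEG10. No hg19 genome or annotation was used, so no gene was assigned to a single peak and no sequence is printed.

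Chromosome 7 was one of the denser autosomes in all 3 lists. In replicate 1 it had 7.41 peaks per Mb (exact Poisson interval at 95%, 6.99 to 7.85) against 4.72 on the other 21 autosomes, a ratio of 1.57 (exact interval 1.48 to 1.67). In replicate 2 it had 8.06 per Mb (7.63 to 8.52) against 3.83, a ratio of 2.11 (1.99 to 2.23). In the IDR list it had 2.69 per Mb (2.44 to 2.95) against 1.41, a ratio of 1.90 (1.717 to 2.103). Among the 22 autosomes it held place 4, 3 and 4 in these lists, while the medians of the other 21 were 4.03, 3.14 and 1.15 per Mb. Lengths include stretches without any peak. Counted per 1 Mb window with a peak, the mean ratio of the 2 replicates was 1.59 in place of 1.84. Intervals throughout reflect counting error alone, as peaks close to each other are not independent and there are only 2 ChIP libraries.

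**Figure D1:**
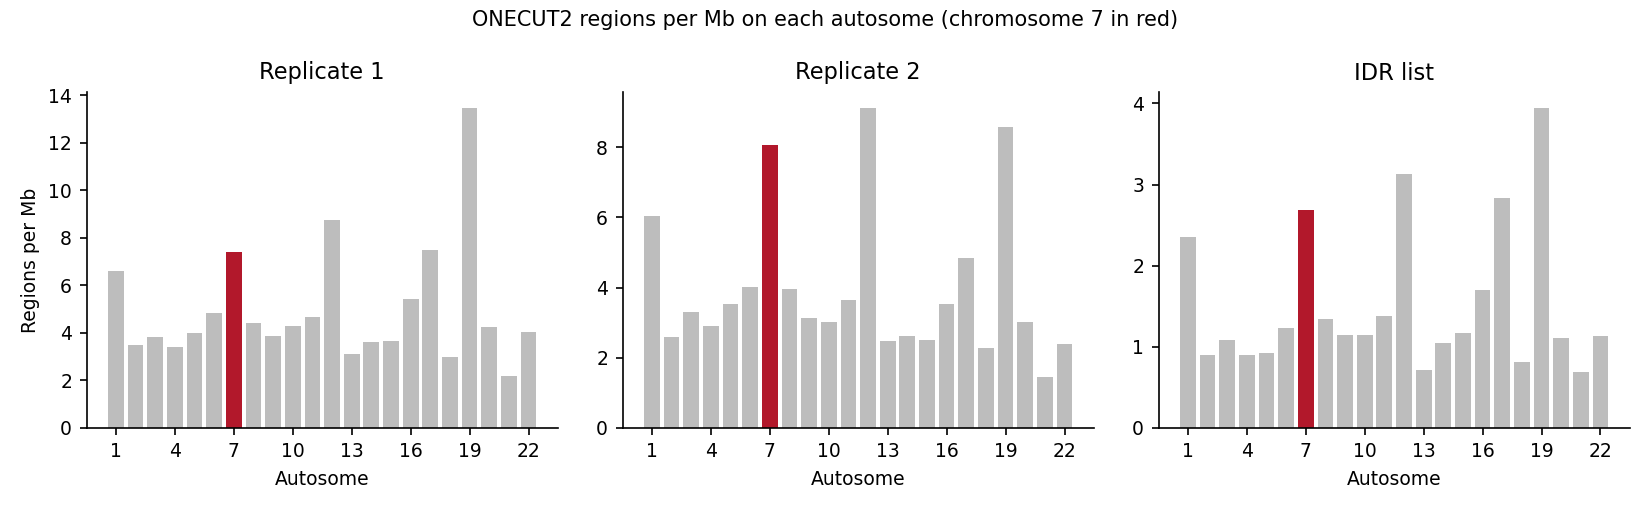
Regions per Mb (y axis) on each of the 22 autosomes (x axis) in the 3 lists, with chromosome 7 in red. Chromosome 7 stands at 7.41, 8.06 and 2.69 per Mb, below chromosomes 19 and 12 in each list and, in replicate 1 and the IDR list, below chromosome 17 too.

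The 2 ChIP libraries did not give the same picture of the chromosome. Replicate 2 had 1.09 times as many peaks as replicate 1 on chromosome 7 (exact interval 1.00 to 1.18), against 0.810 times on the other autosomes together (0.789 to 0.831). Chromosomes 7 and 12 were the 2 autosomes with more peaks in replicate 2 than in replicate 1, and chromosome 7 had the highest ratio of the 22. The lowest was 0.592, on chromosome 22.

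By fold enrichment, the surplus on chromosome 7 was seen in peaks of low and middle height. Fold enrichment is the authors' ratio of summit pileup in the ChIP library to the local input background. Below a fold of 3, chromosome 7 had 1.48 times the density of the other autosomes in replicate 1 (interval 1.34 to 1.63) and 1.86 times in replicate 2 (1.66 to 2.07). The ratio was highest from 3 to 4, at 1.83 (1.66 to 2.00) and 2.47 (2.27 to 2.68). From 4 to 6 it was 1.44 (1.23 to 1.67) and 2.05 (1.78 to 2.36).

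No such surplus was detectable among peaks tall by fold. From 6 to 10 the ratio was 1.29 (0.939 to 1.73) and 1.24 (0.878 to 1.71), and at 10 or more it was 0.613 (0.314 to 1.09) and 0.872 (0.429 to 1.59). The intervals of both classes include 1, so a difference in either direction was not detectable at these counts. At a fold of 10 or more chromosome 7 had 12 peaks in replicate 1 and 11 in replicate 2, place 20 and place 14 among the autosomes.

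**Figure D2:**
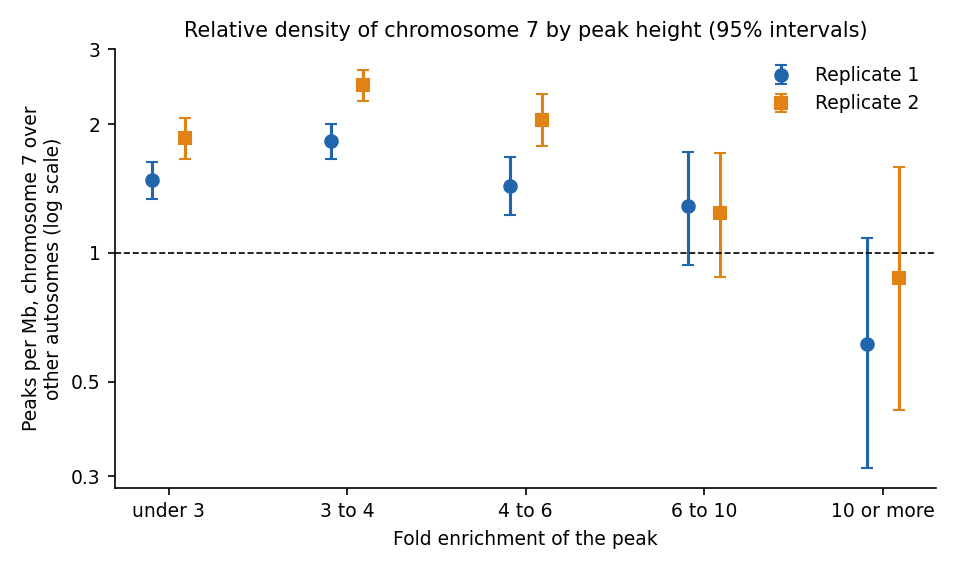
Density of chromosome 7 over that of the other autosomes (y axis, log scale) for peaks of 5 classes of fold enrichment (x axis), with exact 95% intervals. Both replicates lie above 1 in the 3 classes below a fold of 6, and at 10 or more the points are 0.613 and 0.872 with intervals that include 1.

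Tall peaks, those whose fold was at least 6, made up 60 of 1176 in replicate 1 (5.10%, exact Clopper-Pearson interval 3.92% to 6.52%), against 7.46% over that whole list. In replicate 2 they made up 51 of 1279 (3.99%, 2.98% to 5.21%), against 7.08% over that list. On chromosome 12 they made up 6.06% (4.76% to 7.58%) in replicate 1 and 4.59% (3.49% to 5.92%) in replicate 2. These intervals overlap those of chromosome 7. On chromosome 1 the shares were 6.88% and 6.17%. The lowest folds in this class were 6.02 and 6.07, and the highest just outside it were 5.95 and 5.96. For each such peak chromosome 7 had 18.6 and 24.1 lower ones in the replicates, against 12.2 and 12.6 on the other autosomes. Median fold enrichment was close to that of the other autosomes, at 3.33 against 3.27 in replicate 1 and at 3.41 in both places in replicate 2.

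The local input background under the peaks also differed from that on the other autosomes. Both it and the ChIP fragments stacked at a summit were recovered from the deposited fold and −log10 p. Each list has a smallest background, 4.37 fragments in replicate 1 and 4.87 in replicate 2, which the caller uses where the local input is lower. On chromosome 7, 293 peaks of replicate 1 (24.9%, interval 22.5% to 27.5%) lay at that smallest value, against 15.9% (15.2% to 16.5%) on the other autosomes. In replicate 2 it was 474 peaks (37.1%, 34.4% to 39.8%) against 27.1% (26.3% to 28.0%). These shares held place 1 and place 2 among the 22 autosomes.

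At its upper end the same distribution was shifted the other way. The 90th percentile of background was 22.999 fragments on chromosome 7 in replicate 1 and 21.4 in replicate 2, or 1.35 and 1.27 times the median of the other 21 autosomes. Chromosomes 7, 12 and 1 held the first 3 places in both lists. Medians on chromosome 7 were lower, at 8.20 fragments against 10.5 on the other autosomes in replicate 1 and 5.65 against 7.81 in replicate 2. The part of input coverage, and of the number of copies of the chromosome, in the density was not tested.

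**Figure D3:**
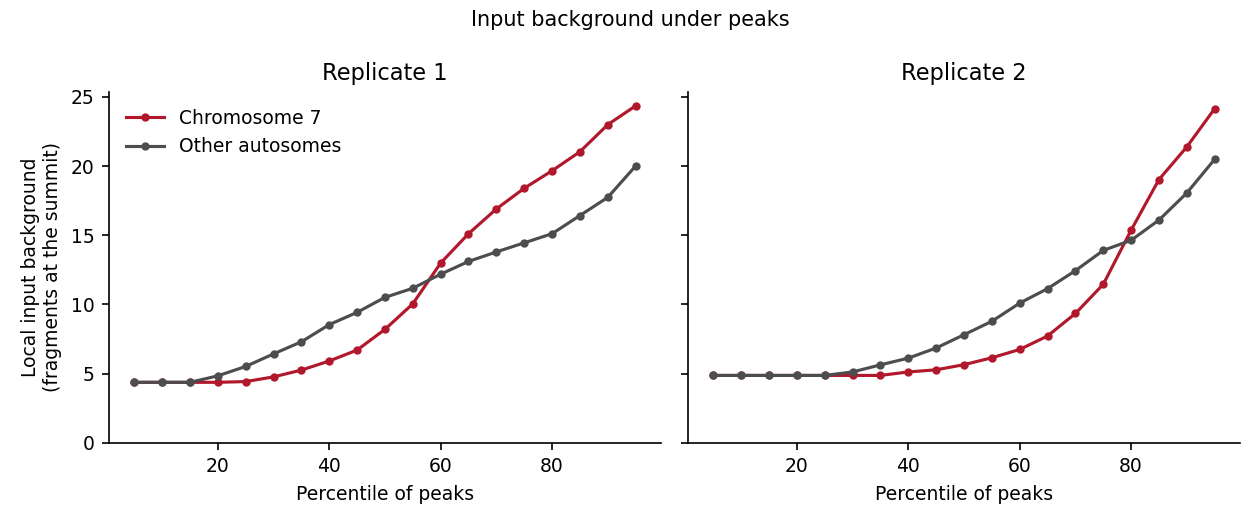
Local input background in fragments (y axis) at each percentile of peaks (x axis) on chromosome 7 in red and on the other autosomes in grey, for both replicates. The chromosome 7 curve runs along the smallest value (4.37 and 4.87) for longer and ends above the other curve, with a 90th percentile of 22.999 and 21.4.

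The surplus was present in both classes of background. Among peaks at the smallest value, chromosome 7 had 2.46 times the density of the other autosomes in replicate 1 (interval 2.17 to 2.78) and 2.88 times in replicate 2 (2.60 to 3.17). Chromosome 12 was denser still in such peaks, at 2.03 and 3.13 per Mb against 1.85 and 2.99 on chromosome 7. Among peaks above the smallest value, the ratios were 1.40 (1.31 to 1.50) and 1.82 (1.690 to 1.957). Peaks at the smallest value rest on few fragments. On chromosome 7 their median was 19 fragments in replicate 1 and 21 in replicate 2, and the lowest called had 15 and 16.

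The overlap between replicates on chromosome 7 differed by list. Of its replicate 1 peaks, 615 of 1176 overlapped a replicate 2 peak by at least 1 bp (52.3%, interval 49.4% to 55.2%), against 51.1% over the whole list. Of its replicate 2 peaks, 634 of 1279 overlapped a replicate 1 peak (49.6%, 46.8% to 52.3%), against 64.5% over that list. On the other autosomes alone the replicate 2 share was 65.9% (64.9% to 66.8%). The 49.6% of chromosome 7 was the lowest share of replicate 2 peaks among the 22 autosomes, whose highest was 83.5%, on chromosome 17. Chromosome 12 was close to it, with 4.28 of its 9.12 replicate 2 peaks per Mb unshared, against 4.07 of 8.06 on chromosome 7. The replicate 1 share of chromosome 7 held place 6. The 615 and 634 shared peaks overlap each other. The low replicate 2 share is thus not separate from the higher replicate 2 count on chromosome 7 given above.

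All tall peaks were shared. The 60 replicate 1 peaks and the 51 replicate 2 peaks with a fold of 6 or more on chromosome 7 each had a peak in the other list. On the other autosomes 99.8% and 99.3% of such peaks did. The shortfall of replicate 2 lay lower down. From a fold of 3 to 4, 202 of its 652 chromosome 7 peaks were shared (31.0%, interval 27.4% to 34.7%), against 49.6% (48.2% to 51.1%) on the other autosomes. From 4 to 6 it was 135 of 224 (60.3%, 53.5% to 66.7%) against 74.9% (72.8% to 76.8%). Replicate 1 peaks in these classes were shared about as often on chromosome 7 as elsewhere, at 50.6% against 49.7% and 82.6% against 82.9%. Below a fold of 3 the lists went opposite ways. Replicate 1 peaks were shared in 35.05% (30.5% to 39.8%) against 28.3% (27.02% to 29.5%) elsewhere, and replicate 2 peaks in 69.9% (64.8% to 74.6%) against 75.3% (73.8% to 76.8%).

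**Figure D4:**
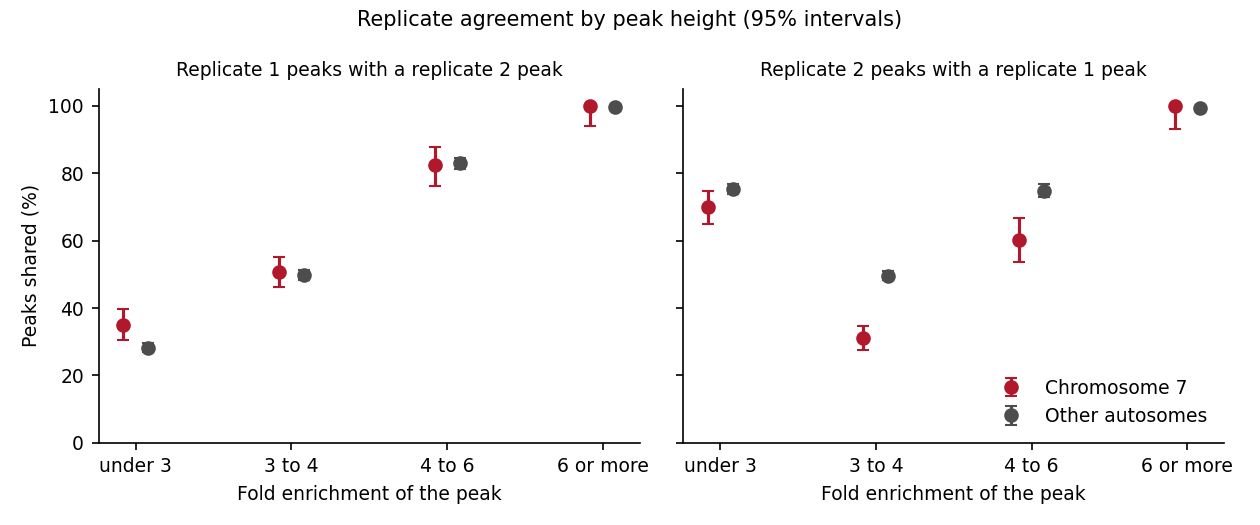
Percent of peaks that overlap a peak of the other replicate (y axis) by fold enrichment (x axis), on chromosome 7 in red and the other autosomes in grey, with exact 95% intervals. The red points of replicate 2 lie below the grey ones from 3 to 4 (31.0% against 49.6%) and from 4 to 6 (60.3% against 74.9%), and all points reach 99% or more at 6 or more.

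The 645 replicate 2 peaks of chromosome 7 without a partner stood at 4.07 per Mb, which was 3.11 times the density on the other autosomes (interval 2.86 to 3.39). Chromosome 12 was denser still in such unshared peaks, at 4.28 per Mb. The shared ones of chromosome 7 stood at 4.00 per Mb, a ratio of 1.59 (1.46 to 1.72). The unshared peaks were narrow, with a median width of 220 bp against 392 bp for the shared ones. Their median was 21 fragments against 39, and 53.0% of them lay at the smallest background against 20.8%. None had a fold above 5.96, and 66 of them (10.2%) fell in the IDR list. In 337 of the 645 (52.2%) the nearest replicate 1 summit lay within 10 kb. Unshared replicate 2 peaks of the other autosomes were much like them, with a median of 224 bp and 22 fragments, 47.9% at the smallest background, 11.2% in the IDR list and 52.7% within 10 kb.

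The low share of replicate 2 peaks, which goes with its higher peak count, was seen in both classes of background. At the smallest value 27.8% of chromosome 7 peaks were shared (interval 23.9% to 32.1%), against 39.7% (37.9% to 41.6%) on the other autosomes. Above it 62.4% were shared (58.9% to 65.7%), against 75.6% (74.6% to 76.6%). Replicate 1 peaks of chromosome 7 were also shared less at the smallest value, in 45.7% (39.9% to 51.6%) against 55.9% (53.75% to 58.1%). Above the smallest value they were shared more, in 54.5% (51.1% to 57.8%) against 49.7% (48.8% to 50.7%).

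Where both libraries had a peak, their values ran together. Over the 615 overlapping pairs on chromosome 7, fold enrichment had a rank correlation (Spearman's rho) of 0.760, fragments 0.902 and background 0.947. On the other autosomes these were 0.740, 0.867 and 0.926. These are descriptions over pairs of the same 2 libraries, and fold has the input background of each list as its denominator. Summits lay a median of 87 bp apart, and 339 pairs (55.1%) had them within 100 bp. In 235 of these 339 pairs fold was higher in replicate 1, with a median log2 ratio of replicate 2 over replicate 1 of -0.17, against -0.20 on the other autosomes. Log2 ratios of fragments spread with an SD of 0.28 in these 339 pairs, where counting error alone gives 0.34. It was 0.35 against 0.35 over all 615 pairs, and 0.28 against 0.23 in the 42 pairs within 100 bp with a mean fold of 6 or more. Only places called in both libraries enter, which can narrow the spread. These SDs thus do not show how far the libraries differ beyond counting error.

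In the IDR list, 243 of the 426 chromosome 7 regions overlapped peaks in both replicates (57.0%, interval 52.2% to 61.8%), against 63.3% over the whole list. A further 56 overlapped replicate 1 only and 20 replicate 2 only. The remaining 107 overlapped no peak of either list (25.1%, 21.1% to 29.5%), against 18.3% over the whole list and 17.7% (16.5% to 18.9%) on the other autosomes. Per Mb, regions without any peak were 2.71 times as dense as on the other autosomes (2.19 to 3.32), and those with a peak in both 1.70 times (1.49 to 1.94). Regions without any peak were denser still on chromosome 12, at 0.882 per Mb against 0.674 on chromosome 7.

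Regions without a peak were wide and of low signal. Their median width was 2200 bp and their median signal 156.3, against 1662 bp and 207 for those with a peak in both. The other autosomes showed the same, with 2193 bp and 163 against 1577 bp and 216. The IDR signal is the authors' own value on a scale that the file header does not name. The highest signal among the unsupported regions was 308, at 92460577 to 92464863. Of the 213 chromosome 7 regions of highest signal, 154 had a peak in both lists (72.3%, interval 65.8% to 78.2%), and of the 213 of lowest signal 89 had one (41.8%). The corresponding shares on the other autosomes were 81.0% (79.1% to 82.7%) and 46.6%, so support was lower at low signal there too.

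Of the chromosome 7 peaks, 425 of replicate 1 (36.1%, against 32.8% over that list) and 373 of replicate 2 (29.2%, against 31.4%) fell in the IDR list. All 12 and 11 peaks with a fold of 10 or more did, against 97.0% and 95.8% of such peaks on the other autosomes. Of the 60 and 51 peaks with a fold of 6 or more, 48 (80.0%) and 36 (70.6%, interval 56.2% to 82.5%) did, against 81.3% and 77.8% on the other autosomes. At 38 sites both lists had a fold of 6 or more, and 6 of these sites (15.8%) lay outside the IDR list, against 13.6% elsewhere. The tallest of the 6, chosen after its values were seen, was a peak from 110147436 to 110148541, with a fold of 8.37 and 44 fragments in replicate 1 and 9.03 and 52 fragments in replicate 2, over the smallest background in both. In replicate 1 the 6 sites had a median of 43.5 fragments and a median background of 4.59, against 83 and 7.69 for the other strong sites.

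The strongest site of the chromosome by IDR signal lay on the short arm from 23509866 to 23511276, with a signal of 1455, rank 2 of all 4297 regions. Replicate 1 had 277 fragments over a background of 21.03, a fold of 12.6, and replicate 2 had 278 over 22.7, a fold of 11.8. The summits were 11 bp apart, and the mean fold was 12.2 ± 0.597 (SD, n = 2). The next, from 6413600 to 6414693 on the short arm, had 953 and rank 39. Its fold was 9.54 in replicate 1 and 8.87 in replicate 2, with 297 and 287 fragments.

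The third by signal lay on the long arm from 75676836 to 75677815, with a signal of 885, 282 and 258 fragments, and folds of 9.90 and 8.77. The region from 134670930 to 134672130 followed with 831 and folds of 7.53 and 5.49. Summits in the replicates were 9 and 11 bp apart at these 2 regions. On the short arm the region from 2272269 to 2273034 had a signal of 733 and folds of 7.32 and 5.19. Its mean of 6.25 ± 1.51 (SD, n = 2) rested on 218 and 175 fragments.

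The region from 148843333 to 148844941 had a signal of 716 and folds of 6.69 and 5.30, and its summits were 444 bp apart, the widest distance among the 10 regions of highest signal. From 2671332 to 2672612 the signal was 665, with folds of 6.27 and 4.89. The last 3 of the 10 lay on the long arm. From 139043971 to 139044891 the signal was 661 and the folds were 9.54 and 7.62. From 105516277 to 105517411 it was 615, with folds of 10.6 and 8.39. From 121784244 to 121785108 it was 611, with folds of 8.78 and 7.70. Fold was higher in replicate 1 at each of the 10, and 6 of them lay on the long arm.

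Ranked by fold enrichment, other sites led the chromosome. The rule took the 5 overlapping pairs of highest mean fold with summits within 100 bp. The tallest spanned 111442017 to 111444583 on the long arm, with a fold of 17.7 (102 fragments) in replicate 1 and 19.4 (123 fragments) in replicate 2, a mean of 18.5 ± 1.20 (SD, n = 2). Its background was 4.83 and 5.41 fragments, near the smallest value, and its IDR signal of 299 ranked 648. The pair from 123036688 to 123041198 had folds of 16.002 and 19.6, with 85 and 114 fragments over the smallest background. The pair from 78865111 to 78866522 had folds of 17.9 and 17.04, with 118 and 123 fragments and summits 4 bp apart.

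On the short arm the pair from 5102906 to 5105591 had folds of 15.3 and 12.3, with 81 and 71 fragments. The last of the 5, from 136981145 to 136983996, had 11.4 and 13.6, with 60 and 79 fragments. A pair from 130771912 to 130773965 had folds of 15.2 and 12.6 and would have held place 4, but its summits were 152 bp apart. At 3 of these 5 pairs the background was at the smallest value. Within the whole lists the 5 ranked between 40 and 257 by fold in replicate 1 and between 15 and 118 in replicate 2. None of the 5 was among the 10 regions of highest IDR signal.

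Over all heights, peaks on chromosome 7 had a lower median width than elsewhere in both replicates, while the intervals for IDR regions overlapped. Median width was 293.5 bp in replicate 1 (exact interval 279 to 309) against 318 bp (314 to 324) on the other autosomes. In replicate 2 it was 274 bp (262 to 286) against 296 bp (292 to 300). In the IDR list it was 1912.5 bp (1771 to 2047) against 1760 bp (1731 to 1793). Chromosome 7 had the smallest median of the 22 autosomes in replicate 1 and stood at place 3 from the narrowest in replicate 2.

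The difference was not the same at all heights. Below a fold of 3 the median on chromosome 7 was 292 bp in replicate 1 and 265 bp in replicate 2, against 268 and 253 bp on the other autosomes. From 3 to 4, where chromosome 7 peaks were narrowest, it was 251.5 and 230 bp against 285 and 257 bp. From 4 to 6 it was 422.5 and 443 bp against 488 and 482 bp. At 6 or more it was 1382.5 and 1194 bp against 1212 and 1181 bp. Chromosome 7 medians were thus below the others from 3 to 6 and above them in the lowest and the tallest class, with no interval computed per class. Peaks of 1000 bp or more numbered 103 (8.76%) in replicate 1 and 82 (6.41%) in replicate 2, against 9.58% and 7.92% on the other autosomes.

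The 3 broadest shared peaks were ranked by their replicate 1 width. The first was the pair from 123036688 to 123041198 named above, 4511 bp wide in replicate 1 and 3484 bp in replicate 2. The second, from 26238975 to 26242143, was 3169 and 2721 bp wide with modest folds of 5.42 and 4.95, and overlapped 2 IDR regions. The third, from 113725582 to 113728675, was 2975 and 3068 bp wide, with folds of 12.4 and 10.2.

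The arms carried peaks at like density. They were split at the longest stretch without a peak in any list, from 57928972 to 61969326, which spans 4.04 Mb around the centromere. In replicate 1 the short arm had 440 peaks, 7.60 per Mb (interval 6.90 to 8.34), and the long arm 736, 7.61 per Mb (7.07 to 8.18). In replicate 2 they had 448, 7.73 per Mb (7.03 to 8.48), and 831, 8.60 per Mb (8.02 to 9.20). In the IDR list they had 155, 2.68 per Mb (2.27 to 3.13), and 271, 2.80 per Mb (2.48 to 3.16). The ratio of short to long arm was 0.998 (0.885 to 1.12), 0.8997 (0.8003 to 1.0105) and 0.955 (0.778 to 1.17), so a difference between arms was not detectable in these counts. Peaks with a fold of 6 or more numbered 23 and 37 on the arms in replicate 1 and 20 and 31 in replicate 2, again at like density per Mb.

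Along the chromosome the peaks were clumped. Of 159 windows of 1 Mb, 149 held a region of some list and 10 held none. The median window had 6 peaks in each replicate and 2 IDR regions, while the fullest had 32, 33 and 12. The 16 fullest windows held 27.04% of replicate 1 peaks, 30.6% of replicate 2 peaks and 29.1% of IDR regions. The variance of window counts was 4.95 times the mean in replicate 1 and 6.83 times in replicate 2. On the other 21 autosomes the median of this measure was 5.58 and 4.22, so chromosome 7 stood at place 14 for clumping in replicate 1 and at place 4 in replicate 2.

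The blocks of 10 Mb on either side of the centromere were the emptiest. From 50 to 60 Mb there were 22 peaks in replicate 1 and 13 in replicate 2, and from 60 to 70 Mb 31 and 24. The fullest block was from 90 to 100 Mb in replicate 1, with 122 peaks against 126 in replicate 2. In replicate 2 it was the block before, from 80 to 90 Mb, with 145 peaks against 86 in replicate 1. That block had 17 IDR regions, and 1 peak in replicate 1 and 0 in replicate 2 with a fold of 6 or more. Over the whole chromosome such peaks made up 5.10% and 3.99%. Besides the gap at the centromere, the longest stretches without a peak were from 69247537 to 72209402 (2.96 Mb) and from 152457941 to 154719580 (2.26 Mb).

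Window counts of the 2 replicates had a rank correlation of 0.816 over the 149 windows, a description of places within the same 2 libraries. Replicate 2 had more peaks in 68 windows, replicate 1 in 64, and 17 were equal. Background moved with this split. In the windows fuller in replicate 2, 45.6% of its 836 peaks lay at the smallest background and the median was 5.12 fragments. In the windows fuller in replicate 1, 16.8% of the 352 replicate 2 peaks lay there and the median was 10.7. The replicate 1 peaks showed the same split, with medians of 5.29 and 14.5. The part of background in the split was not tested.

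**Figure D5:**
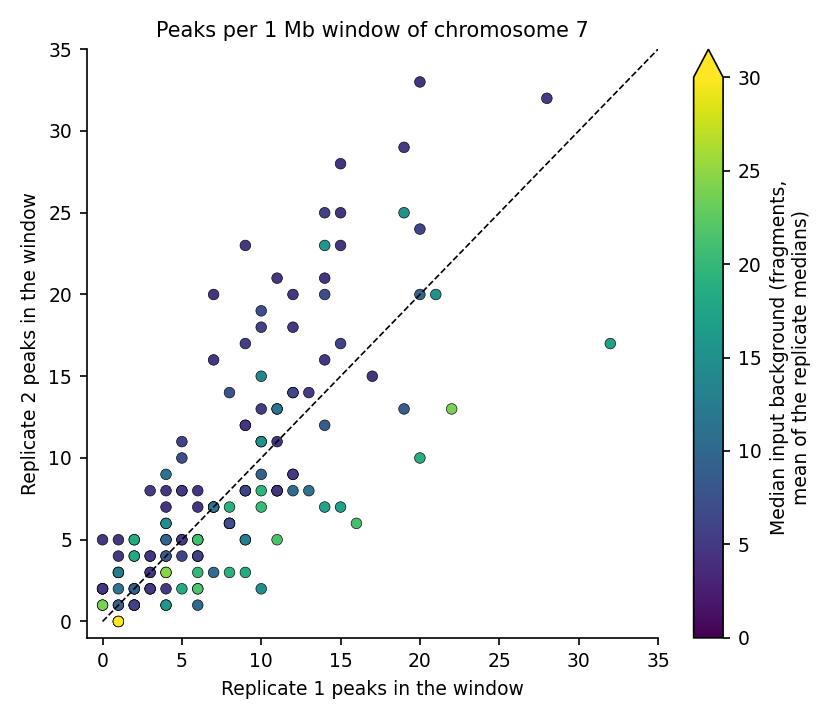
Replicate 1 peaks (x axis) and replicate 2 peaks (y axis) in each 1 Mb window of chromosome 7, coloured by the median input background of its peaks, with a dashed line where both counts are equal. Windows far above the line, up to 33 peaks in replicate 2, are dark (low background), and the window with 32 and 17 peaks lies below it with a background above 15 fragments.

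Windows with the most peaks differed in background and in IDR regions. The fullest by the mean of the replicates was from 7 to 8 Mb, with 28 peaks in replicate 1 and 32 in replicate 2. It had 3 IDR regions and no peak with a fold of 6 or more. Over all chromosome 7 peaks 5.10% and 3.99% reached that fold. From 38 to 39 Mb there were 20 and 33 peaks and 4 IDR regions, with 1 strong peak in each list. From 86 to 87 Mb there were 19 and 29 peaks and 5 IDR regions, with folds of at most 3.93 and 3.92. Median background in these windows was between 4.50 and 5.51 fragments in replicate 1 and between 4.87 and 5.25 in replicate 2.

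The window from 99 to 100 Mb had 32 peaks in replicate 1, 17 in replicate 2 and 12 IDR regions, the most on the chromosome, over a median background of 18.7 and 15.4 fragments. As background, this band is rich in genes, with many zinc-finger genes among them. It had 3 strong peaks in replicate 1 and 1 in replicate 2. The window after it, from 100 to 101 Mb, had 22 and 13 peaks and 11 IDR regions over 21.7 and 26.4 fragments. The window from 148 to 149 Mb, which is known to hold EZH2 and a cluster of zinc-finger genes, had 21 and 20 peaks and 11 IDR regions over 16.8 and 13.8 fragments.

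The window from 27 to 28 Mb, known to hold the HOXA genes, had 19 and 25 peaks and 10 IDR regions, and tied for place 5 by mean count with the window from 91 to 92 Mb (20 and 24 peaks, 6 IDR regions). The latter had a median background of 6.32 and 5.85 fragments and 1 strong peak in each list, with folds of 12.5 and 12.3. The HOXA window held the longest run of IDR regions on the chromosome. From 27161150 to 27240731, 7 regions followed each other with summits no more than 50 kb apart, and 6 of them had a peak in both lists. Their signals were between 143 and 264, so none ranked above 898. Within this run replicate 1 had 13 peaks and replicate 2 had 12, 8 of them shared in each list. Folds were between 1.95 and 3.82 in replicate 1 and between 2.14 and 3.75 in replicate 2, with medians of 48 and 46.5 fragments over backgrounds of 18.7 and 19.03. No peak of the run reached a fold of 6. Over all chromosome 7 peaks 5.10% and 3.99% did, and 13 and 12 peaks cannot tell the run from these shares.

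The window from 94 to 95 Mb, known to hold PEG10, had 17 peaks in replicate 1, 15 in replicate 2 and 4 IDR regions. None of its peaks reached a fold of 6, and the highest were 4.47 and 4.77. Over all chromosome 7 peaks 5.10% and 3.99% did, and so few peaks cannot tell the window from these shares. Of its peaks 9 in each list were shared, and 9 and 10 lay at the smallest background.

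Strong peaks were spread thinly. A peak with a fold of 6 or more in either list occurred in 58 windows and in both lists in 37, and no window had more than 3. Besides the window from 99 to 100 Mb, those from 6 to 7, 13 to 14 and 139 to 140 Mb had the most, with 2 in each list. The window from 13 to 14 Mb was sparse otherwise, with 4 and 6 peaks in all.

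In 8 windows replicate 2 had at least 10 more peaks than replicate 1. The widest gap was from 80 to 81 Mb, with 9 and 23 peaks, and the windows from 81 to 82 and 114 to 115 Mb had 15 and 28 and 7 and 20. Together with the windows from 20 to 21, 38 to 39, 86 to 87, 89 to 90 and 90 to 91 Mb, all 8 had a median replicate 2 background of at most 5.20 fragments. In 3 windows replicate 1 had at least 10 more, from 99 to 100 Mb, from 6 to 7 Mb (20 and 10) and from 44 to 45 Mb (16 and 6), and their replicate 2 medians were 15.4, 21.7 and 22.3. The first 3 windows of the short arm had 33 peaks in replicate 1 and 15 in replicate 2, with 13 IDR regions, and the last 3 of the long arm had 12, 9 and 5.

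Neighbours were closer on chromosome 7 than elsewhere. The nearest peak of the same list lay a median of 2.87 kb away in replicate 1 and 3.10 kb in replicate 2, against 4.07 and 5.24 kb on the other autosomes. Another IDR region lay within 50 kb of 171 of the 426 (40.1%, interval 35.5% to 45.0%), against 33.1% (31.6% to 34.6%) on the other autosomes. A denser chromosome has closer neighbours by construction. The regions formed 73 runs of 2 or more, 13 of them with 3 or more, and 255 stood alone. After the HOXA run, the next longest had 6 regions, from 99631729 to 99717995, of which 3 had a peak in both lists.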

How the data were processed

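The authors deposited 3 peak lists in hg19. Per the file headers, 2 hold MACS2 peaks of 1 replicate each and 1 an optimal set, called IDR in its track name. Per the labels, each replicate was set against input. BWA 0.7.13-r1126, Picard and MACS2 2.1.1 are listed in the submitters' processing notes, with no roles. For settings, read filters and library totals nothing is stated (not given in the sources used here). Peak by peak, the authors' peak values were fold enrichment (a ratio), −log10 p-value and −log10 q-value. For IDR regions the authors deposited a signal value, on a scale the header does not name, and a score. The deposited scores were not used.

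Fragments and background were recovered from fold = (fragments + 1)/(background + 1) and a Poisson upper tail. All 1176 and 1279 chromosome 7 peaks fitted within 0.001 of −log10 p. Median fragments per summit were 34 and 30 over the whole lists, which limits the precision of each fold. Backgrounds within 1% of the smallest were counted as smallest. Windows and window medians used summits. Chromosome length was taken to the end of the last region in any list, since no hg19 genome was used. Overlap means at least 1 bp unless stated. Each shared replicate 1 peak was paired with the replicate 2 peak, among those overlapping it, whose summit was closest. Intervals are exact at 95% (Poisson, Clopper-Pearson, conditional binomial for ratios, order statistics for medians). No p-values were computed, as 1 cell line in 1 condition leaves no samples to permute. Steps were tested on simulated data. Python 3.11.15, numpy 2.4.6, pandas 2.3.3 and scipy 1.17.1 were used.

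The members and the rules were chosen with earlier results of these data known. Named by rule were the 10 regions of highest IDR signal, the 5 pairs of highest mean fold with summits within 100 bp, the 3 broadest shared peaks, the windows with the most peaks (5, ties kept), IDR regions (3) and strong peaks (3, ties kept), and the windows known to hold HOXA and PEG10. Other windows and sites were chosen after their values were seen. Genes and sequences under the peaks were not analysed here.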

Additional observations from a re-analysis of the deposited data

How the results depend on the processing

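Among 42 alternatives, 21 moved a value by no more than its interval or the spread of the replicates, 21 moved it further, and 5 alternatives (background above the smallest value, shared peaks) were chosen after seeing the data. The density ratio of 1.84 became 1.10 for peaks with a fold of 6 or more and 1.59 per 1 Mb window with a peak. With −log10 q of at least 5 the density ratio was 1.62. It was 1.57 to 2.11 from 1 replicate list alone. The arm ratio of 0.949 crossed to 1.06 both with −log10 q of at least 5 and with a fold of 6 or more, and was 0.8997 to 0.998 from 1 list alone. The share of replicate 1 peaks shared (52.3%) was 32.5% when the overlap had to be 50% of both peaks, 28.9% when summits had to lie within 100 bp, 55.2% for −log10 q of 5 or more and 100% at a fold of 6 or more. For replicate 2 (49.6%) these were 29.9%, 26.7%, 55.0% and 100%, and 62.4% above the smallest background. With −log10 q of at least 5, 40.8% of IDR regions had a peak in both lists, as fewer peaks remain. The rank correlation of fold (0.760) was 0.819 with summits within 100 bp and 0.902 for fragments. Median widths were 470 and 404 bp with −log10 q of at least 5 and 1382.5 and 1194 bp at a fold of 6 or more. The ratio of low to tall peaks relative to other autosomes (1.72) was 1.25 with a fold of 4 as the limit and 2.52 with 10, and 1.53 to 1.92 from 1 list alone. Where no reason is given, the cause was not tested. No paired analysis was possible because ChIP and input were joined within each deposited list before any value here was computed. Overlaps and correlations need both lists, so neither replicate could be left out of them. Tall peaks are few, which limits what can be seen at a fold of 6 or more.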

Other observations

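The lists also hold regions on 1 contig that hg19 assigns to chromosome 7 without a position, which were left out of all counts above. Replicate 1 had 35 peaks there, with a highest fold of 5.74, and replicate 2 had 31, with a highest fold of 4.33. The IDR list had 0.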
